A study of Mus musculus with 6 samples.

Results

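Integrin and laminin subunits were picked from the liver RNA-seq table by gene symbol. A row was taken if its symbol was an integrin α chain (Itga followed by a number, v, l, m, x, e, d or 2b), an integrin β chain (Itgb followed by a number) or a laminin α, β or γ chain (Lama, Lamb or Lamc followed by a number). Of 25403 genes listed, 37 matched and 36 held 10 or more counts over the 6 livers. The exception was *Itgad*, with 8 counts in all. The 36 were 11 laminin chains, 6 integrin subunits of leukocytes and 19 other integrin subunits. The livers came from 3 mice labelled WT, of the C57BL6/J strain, and 3 mice labelled *Themis*-KO, which the study describes as a whole-body knockout and for which the labels give no strain. THEMIS is a signaling protein best known from T cells, and the study asked how its loss changes diet-induced metabolic dysfunction–associated steatohepatitis (MASH). Both groups were started on a MASH diet at an age of 10 to 12 weeks and stayed on it for 3 months. Fat gave 40% of its energy and fructose 20%, and it held 2% cholesterol. No chow-fed liver was part of the comparison, and a whole-body deletion does not separate hepatocytes from immune cells. The study describes its WT and *Themis*-KO mice on the MASH diet as male, and the labels of these 6 livers do not give the sex.

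Poly(A) RNA of whole liver was sequenced, and each library held between 20679642 and 25649767 counts on genes. Defining hepatocyte genes were abundant in every liver, with a summed level of 10 hepatocyte markers of at least 50765 in CPM, the counts scaled to a common library size. *Themis* RNA did not separate the labels. It stood at 8.07, 25.6 and 12.0 CPM in the livers labelled WT and at 8.63, 7.74 and 9.97 CPM in those labelled *Themis*-KO (log2 fold change −0.79, SE 0.38, adjusted p = 0.199 in edgeR's quasi-likelihood test). The groups below are therefore named by their labels. WT replicates 1 and 2 also stood apart from the other 4 livers in their mitochondrial transcripts. *Gm28438* made up 96.6% and 96.8% of the counts on *Gm28438* and *mt-Nd3* in these 2 livers and between 2.20% and 3.26% in WT replicate 3 and the 3 livers labelled *Themis*-KO. This split is called the mitochondrial type below. Both livers of the first type carry the WT label, so that type and label cannot be told apart for them.

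Integrins are transmembrane receptors built from 1 α and 1 β chain, and the pair decides which matrix protein or cell-surface ligand is bound. Laminins are secreted trimers of an α, a β and a γ chain that polymerize into the basement membrane, where nidogen and perlecan tie the laminin sheet to the collagen IV network. In healthy liver, bile ducts, portal vessels and nerves lie on such membranes while the sinusoids lack a continuous one, and deposition of laminin along the sinusoids accompanies liver fibrosis. Whole liver RNA cannot tell fewer cells of a type from less RNA per cell, and this holds for each difference given below.

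Of the 33 subunits with enough counts to be tested, 8 were higher and 1 was lower in the livers labelled *Themis*-KO. A gene counts as higher or lower where its p from edgeR's quasi-likelihood test, adjusted by the Benjamini-Hochberg method over all 14496 genes tested, was under 0.05. Over all genes tested, 4.97% were higher and 4.14% were lower. Higher were the laminin chains *Lama5* and *Lamc1*, the integrin chains *Itga2*, *Itga6*, *Itga9* and *Itgb3*, and the leukocyte chains *Itgax* and *Itgb2*. Lower was the laminin chain *Lama3*. The log2 fold change was positive for 28 subunits and negative for 5, and its median over the 33 was 0.41, against 0.0095 over all genes tested. Every liver labelled *Themis*-KO lay above every liver labelled WT for 17 of the 33 subunits and below for 2. Over all genes tested these shares were 17.7% and 16.9%. At an unadjusted p under 0.05, 20 of the 33 passed, as did 4449 of the 14496 genes.

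**Figure D1:**
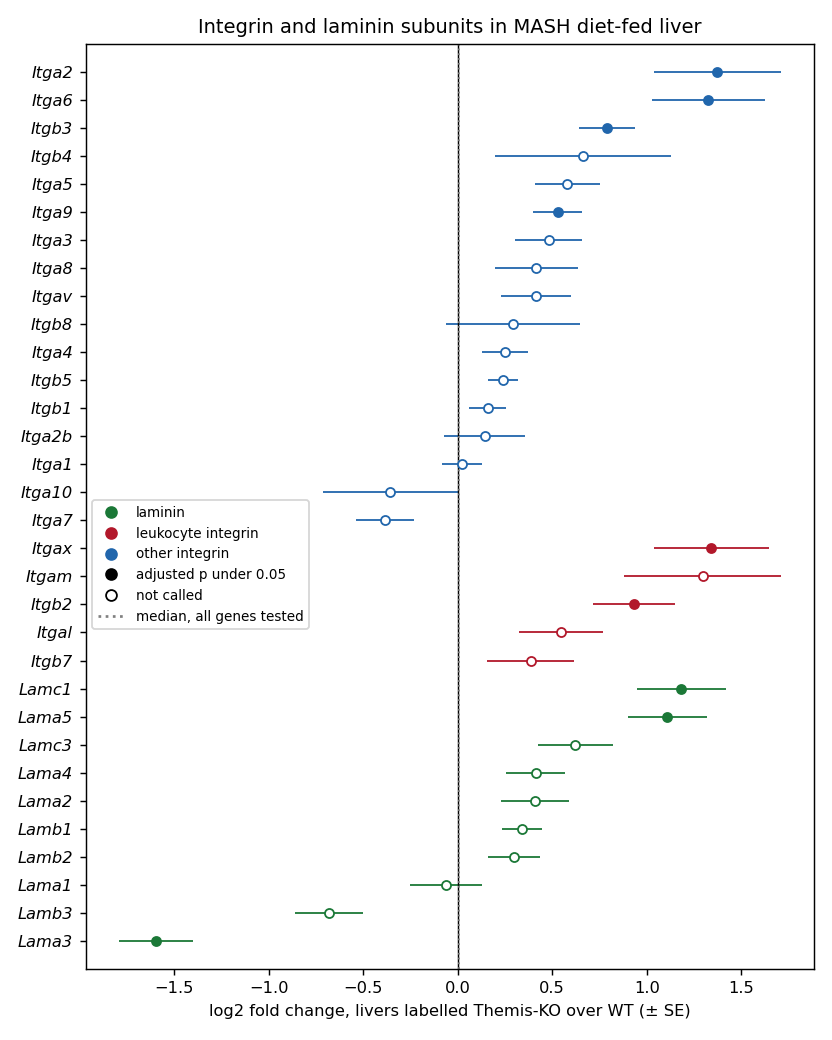
Log2 fold change (x axis, livers labelled Themis-KO over livers labelled WT) of 32 of the tested subunits, with bars for ± 1 SE from edgeR's quasi-likelihood fit on 3 against 3 livers. Filled circles passed an adjusted p of 0.05, colors give the class, and the dotted line is the median of all genes tested, 0.0095. Of the circles, 27 lie to the right of 0, and Lama3 at −1.59 lies farthest to the left.

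All 9 calls were lost on removing any 1 of 4 of the 6 livers. None of them held when the first or the second WT liver was left out, where the adjusted p of the 9 subunits lay between 0.0577 and 0.168 and between 0.0512 and 0.138, respectively. None held without the first *Themis*-KO liver (adjusted p between 0.0593 and 0.151) or without the second (between 0.0610 and 0.157). Over all genes, these 4 fits called between 8 and 27 higher and between 12 and 57 lower, against 721 and 600 with all 6 livers. Without WT replicate 3, 7 of the 9 held, and *Lama5* and *Lamc1* did not, with the highest adjusted p at 0.0593. Without the last *Themis*-KO liver, 2228 genes were called higher and 2039 lower over all genes, and all 9 subunits held. A fit with the mitochondrial type as a covariate kept none, with adjusted p between 0.248 and 0.526, and it then sets WT replicate 3 alone against the livers labelled *Themis*-KO. In that fit the log2 fold change stayed near its value for *Lama3* (−1.47), *Lama5* (1.29), *Lamc1* (1.07) and *Itgb3* (0.72). It was smaller for *Itga6* (0.97), *Itga2* (0.90), *Itgax* (0.74), *Itgb2* (0.55) and *Itga9* (0.27). The SE of these 9 values lay between 0.14 and 0.42, and whether the subunits differ in this respect was not tested. No call changed direction in any of these fits.

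For 23 of the 36 subunits the RefSeq promoter table for GRCm38.p6 held an entry, among them 4 of the 9 called subunits. The 250 bases before the start are printed for the 3 of these whose start lies within 3 bases of the 5′ end of the gene in GENCODE vM21, so that the sequence in front of subunits called higher can be read. Letters in capitals mark matches, on either strand, to an AP-1 motif (TGACTCA), a TEAD motif (GGAATG), an SP1 motif (GGGCGG) or a TATA box (TATAAA). *Lama5* (chr2:180225860-180226109, minus strand) held 4 SP1 matches, beginning 196, 128, 59 and 14 bases before the start. *Itgax* (chr7:128129300-128129549, plus strand) held 1 AP-1 match, beginning 56 bases before the start. *Itga2* (chr13:114932101-114932350, minus strand) held none of the 4 motifs.
Lama5: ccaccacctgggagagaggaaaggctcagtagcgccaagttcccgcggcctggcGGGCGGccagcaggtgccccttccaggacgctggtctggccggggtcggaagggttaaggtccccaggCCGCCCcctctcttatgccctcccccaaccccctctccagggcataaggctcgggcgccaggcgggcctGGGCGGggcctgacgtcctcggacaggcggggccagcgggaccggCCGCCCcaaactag
Itgax: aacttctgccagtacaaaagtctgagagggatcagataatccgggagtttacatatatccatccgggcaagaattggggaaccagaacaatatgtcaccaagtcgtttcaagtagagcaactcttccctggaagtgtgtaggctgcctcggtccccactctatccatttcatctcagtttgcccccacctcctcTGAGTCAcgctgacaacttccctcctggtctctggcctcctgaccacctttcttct
Itga2: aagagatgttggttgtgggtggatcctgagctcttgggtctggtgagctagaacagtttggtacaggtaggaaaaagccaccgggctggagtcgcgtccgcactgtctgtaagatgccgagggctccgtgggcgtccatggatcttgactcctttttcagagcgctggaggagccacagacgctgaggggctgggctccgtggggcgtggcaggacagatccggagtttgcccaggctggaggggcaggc

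Some of the 23 starts lie away from the GENCODE 5′ end of the gene, farthest for *Itga9*, *Lamb3* and *Lama2* (105002, 94295 and 2816 bases). Among the 23 promoters, 1 held the AP-1 motif, 2 the TEAD motif, 8 the SP1 motif and 0 the TATA box. Of all 32851 promoters in the table, 4.46%, 12.64%, 32.74% and 12.37% did. A match to these letters is a description of the sequence and not a binding site.

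Laminin chains moved in both directions. Of the 11 chains, 2 were called higher (*Lama5* and *Lamc1*), 1 was called lower (*Lama3*) and 8 were not called, and their median log2 fold change was 0.41. Every liver labelled *Themis*-KO lay above every liver labelled WT for 7 chains and below for 2. The α chains carry the domain by which laminins bind integrins, and the β and γ chains complete the trimer.

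*Lama5* encodes α5, the α chain of laminin-511 and laminin-521 in mature vascular and epithelial basement membranes. It was counted at 7.11, 6.81 and 5.80 CPM in the livers labelled WT and at 18.8, 12.5 and 11.2 CPM in those labelled *Themis*-KO. The groups did not overlap, and *Themis*-KO replicate 1 was highest. The log2 fold change was 1.11 (edgeR adjusted p = 0.0293, SE 0.21), a fold of 2.16. The gene lies on chromosome 2 from 180176373 to 180225859 (GRCm38, minus strand).

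*Lamc1* encodes γ1, the γ chain of most laminins and the one nidogen binds. Its level was 24.5, 28.0 and 29.6 CPM in the livers labelled WT and 80.8, 66.2 and 39.4 CPM in those labelled *Themis*-KO. The livers labelled WT lay close together while the others spread over a wide range, with replicate 3 nearest to the WT level. The log2 fold change was 1.18 (edgeR adjusted p = 0.0317, SE 0.24), a fold of 2.27. The gene lies on chromosome 1 from 153218922 to 153332786 (minus strand).

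The β chains that join α5 and γ1 moved less. *Lamb1* encodes β1 and read 15.2, 14.5 and 14.4 CPM in the livers labelled WT against 20.7, 17.6 and 17.4 CPM in those labelled *Themis*-KO. These groups did not overlap, but the log2 fold change of 0.34 (edgeR adjusted p = 0.0799, SE 0.11) did not pass. *Lamb2*, which encodes β2, read 9.86, 8.59 and 8.48 CPM against 12.4, 9.72 and 11 CPM, and the groups overlapped (log2 fold change 0.30, SE 0.14, adjusted p = 0.18, edgeR). *Nid1*, which encodes nidogen 1 and is no laminin subunit, read 22.1, 28.3 and 37.3 CPM against 95.3, 106 and 55.7 CPM. It was higher without overlap (log2 fold change 1.55, SE 0.27, adjusted p = 0.0241, edgeR), and its lowest *Themis*-KO value was in replicate 3, as for *Lamc1*.

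The chains α3 and β3 join in a laminin of epithelia with hemidesmosomes, such as skin. *Lama3*, which encodes α3, read 4.91, 4.32 and 4.06 CPM in the livers labelled WT and 1.32, 1.33 and 1.75 CPM in those labelled *Themis*-KO. It was lower without overlap, by −1.59 as a log2 fold change (edgeR adjusted p = 0.0115, SE 0.20), or 3.02 times lower. This was the smallest adjusted p of the 33 tested subunits.

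*Lamb3*, which encodes β3, read 12.1, 14.2 and 9.83 CPM in the livers labelled WT and 6.76, 6.84 and 8.93 CPM in those labelled *Themis*-KO. Every *Themis*-KO value lay below every WT value, but a log2 fold change of only −0.68 (edgeR adjusted p = 0.0545, SE 0.18) missed the threshold. DESeq2 called *Lamb3* lower, with an adjusted p of 0.00995.

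**Figure D2:**
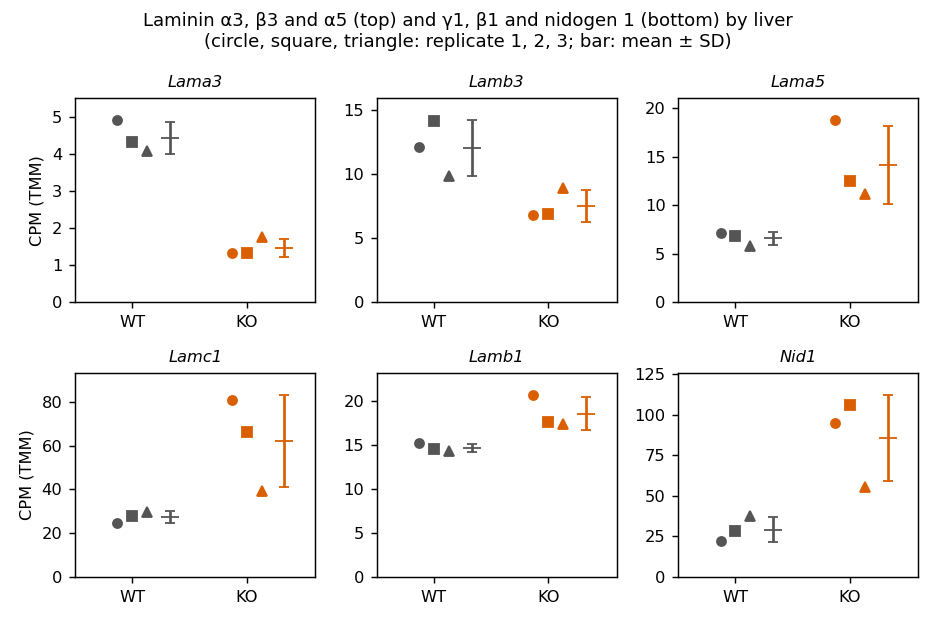
CPM after TMM scaling (y axis, from 0) of the laminin chains Lama3, Lamb3 and Lama5 in the top row and of Lamc1, Lamb1 and Nid1 in the bottom row, for each of 3 livers labelled WT (gray) and 3 labelled Themis-KO (orange, KO), with mean ± SD beside the points. Lama3 and Lamb3 sit lower and Lama5 higher in the livers labelled Themis-KO, without overlap.

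Of the laminin chains that were not called, *Lama4*, the α chain of vascular laminins, and *Lama2*, the α chain of muscle and mesenchymal basement membranes, had a log2 fold change of 0.41 each and no overlap (adjusted p = 0.122 and 0.17, edgeR). *Lamc3*, which encodes γ3, had 0.62 without overlap (adjusted p = 0.085). *Lama1*, the α chain of the early embryonic laminin, read 5.0, 6.0 and 5.13 CPM against 5.23, 4.0 and 6.23 CPM, and its log2 fold change of −0.06 had an SE of 0.19.

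Shares within a class do not depend on how libraries are scaled. Each chain's CPM was divided by the length of its merged exons, and its share of the summed CPM per kb of its class was taken in each liver. Among the α chains, *Lama3* made up 19.9%, 17.7% and 18.9% in the livers labelled WT and 3.75%, 5.17% and 6.15% in those labelled *Themis*-KO. *Lama5* made up 27.2%, 26.3% and 25.4% against 50.5%, 45.6% and 37.2%. Neither pair of groups overlapped, so α5 went from 26.3% ± 0.88 (SD, n = 3) to 44.4% ± 6.75 (SD, n = 3) of the α chain RNA. The exact two-sided permutation test gave p = 0.1 for each, the smallest that 3 livers against 3 allow.

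**Figure D3:**
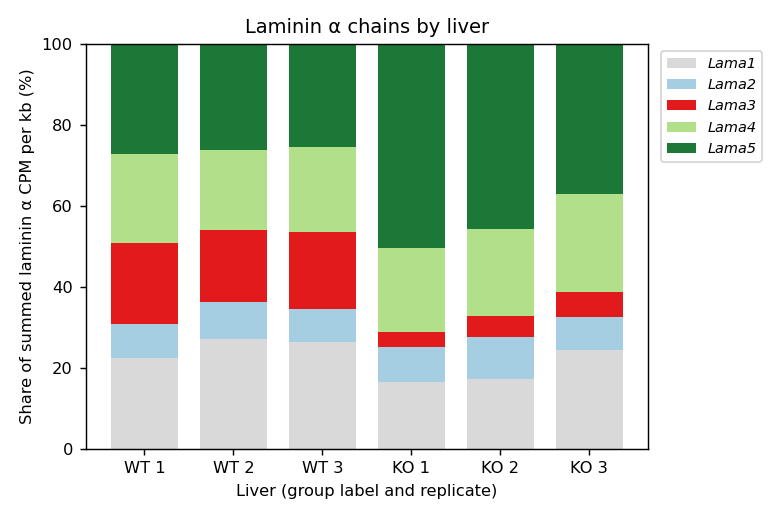
Share of each laminin α chain in the summed CPM per kb of the 5 α chains (y axis, percent) in each of the 6 livers (x axis, WT or KO label and replicate). The Lama3 segment (red) shrinks from between 17.7% and 19.9% to between 3.75% and 6.15%, and the Lama5 segment (dark green) grows from between 25.4% and 27.2% to between 37.2% and 50.5%.

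The β and γ classes behaved differently in their sums. Summed β chains read 4.78 ± 0.39 CPM per kb (SD, n = 3) in the livers labelled WT and 4.82 ± 0.38 in those labelled *Themis*-KO. Within this sum, *Lamb3* went from 37.9% ± 4.29 to 23.6% ± 3.80 without overlap. Summed γ chains read 3.90 ± 0.19 CPM per kb against 8.53 ± 2.60. *Lamc1* was most of the γ sum in both groups, at 84.8% ± 4.22 and 87.3% ± 4.34, with overlap. Of the 36 shares computed over the laminin and integrin classes, 8 lay higher and 6 lower in every liver labelled *Themis*-KO. Shares of a class add up to a fixed total, so a rise of some chains lowers the others. These counts are therefore not of separate observations, and no reference count from other genes was computed. *Itgb1*, for example, fell from a mean of 67.1% to 63.1% of the integrin β chain RNA per kb, while its mean CPM rose from 247 to 275.

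Laminin-binding integrins share the β1 chain, and α6 also pairs with β4 in hemidesmosomes. *Itga6*, which encodes α6, read 3.44, 2.83 and 4.70 CPM in the livers labelled WT and 10.5, 11.4 and 5.67 CPM in those labelled *Themis*-KO. The groups did not overlap, and both replicates 3 lay nearest to the other group. The log2 fold change was 1.33 (edgeR adjusted p = 0.0395, SE 0.30), a fold of 2.51. *Itga6* lies on chromosome 2 from 71745616 to 71858416 (plus strand). *Itga3*, which encodes α3, had a log2 fold change of 0.48 without overlap (adjusted p = 0.115), and *Itga7*, the α chain of muscle laminin receptors, had −0.38 with overlap (adjusted p = 0.135). As a share of all integrin α chain RNA per kb, *Itga6* went from 2.00% ± 0.22 to 3.46% ± 0.76 and *Itga7* from 6.38% ± 0.99 to 3.47% ± 0.91, both without overlap.

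The partners of α6 were not called. *Itgb1*, the β chain shared by most matrix receptors, read 247, 231 and 262 CPM in the livers labelled WT and 289, 289 and 248 CPM in those labelled *Themis*-KO, with overlap (log2 fold change 0.16, SE 0.10, adjusted p = 0.304, edgeR). *Itgb4* read 1.15, 0.768 and 0.710 CPM against 2.04, 0.559 and 1.56 CPM, with the lowest and the highest value of all livers both in the *Themis*-KO group (log2 fold change 0.66, SE 0.47, adjusted p = 0.362, edgeR). It rested on 13 to 48 counts a liver.

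Of the 4 collagen-binding α chains, *Itga2* was called. *Itga2* encodes α2, the collagen receptor of platelets and epithelia, and read 0.505, 0.384 and 0.789 CPM in the livers labelled WT and 1.49, 1.16 and 1.79 CPM in those labelled *Themis*-KO. It was higher without overlap (log2 fold change 1.37, SE 0.34, adjusted p = 0.046, edgeR), on 8 to 20 counts a liver against 27 to 38. *Itga1* is its neighbor on chromosome 13, 20995 bases away on the same strand, and encodes α1, a collagen receptor of mesenchymal and endothelial cells. It read 30.6, 27.1 and 34.6 CPM against 31.4, 30.5 and 31.9 CPM (log2 fold change 0.02, SE 0.10, adjusted p = 0.903, edgeR). *Itga10*, which shares 33.5% of its exon bases with the overlapping gene *Gm42957* (18 counts), had a log2 fold change of −0.36 (SE 0.36), and *Itga11* held 0 to 7 counts a liver labelled WT and 4 to 12 in the others and was not tested.

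Integrins that bind the RGD sequence of fibronectin, vitronectin and latent TGF-β were represented among the edgeR calls by *Itgb3*, and DESeq2 also called *Itga5*, the α5 chain of the fibronectin receptor (adjusted p = 0.0272). β3 pairs with αV on many cells and with αIIb on platelets. *Itgb3* read 4.63, 5.37 and 5.41 CPM in the livers labelled WT and 8.33, 10.2 and 8.17 CPM in those labelled *Themis*-KO, with the groups well apart. The log2 fold change was 0.79 (edgeR adjusted p = 0.0283, SE 0.15), a fold of 1.73. *Itgb3* lies on chromosome 11 from 104608000 to 104670476 (plus strand).

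The α partners of β3 were not called. *Itgav*, which encodes αV, read 23.3, 19.3 and 26.9 CPM against 32.8, 36.6 and 23.2 CPM, with *Themis*-KO replicate 3 inside the WT range (log2 fold change 0.41, SE 0.19, adjusted p = 0.174, edgeR). *Itga2b*, the platelet αIIb chain, read 2.11, 3.41 and 2.64 CPM against 2.89, 3.14 and 2.98 CPM (log2 fold change 0.14, SE 0.21, adjusted p = 0.677, edgeR). Platelet RNA was low in these libraries. The 5 platelet markers summed to between 0.96 and 2.06 CPM in the livers labelled WT and between 2.41 and 2.89 CPM in the others. Of the 2 tested, *Pf4* was higher (log2 fold change 1.57, SE 0.25, adjusted p = 0.021, edgeR). *Gp1ba* was not called (log2 fold change −0.39, adjusted p = 0.656, edgeR). The part of platelets in the *Itgb3* result was not tested.

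Of the other RGD receptors, *Itga5* lay higher in every liver labelled *Themis*-KO (log2 fold change 0.58, adjusted p = 0.0716). *Itga8*, an α chain of mesenchymal cells including stellate cells, had 0.42 with overlap (adjusted p = 0.234). *Itgb5*, which pairs with αV, was at 75.4, 83.2 and 81.7 CPM against 93.9, 91.0 and 98.9 CPM, a small difference without overlap that was not called (log2 fold change 0.24, SE 0.08, adjusted p = 0.0931, edgeR). *Itgb8* had 0.29 (SE 0.36), and *Itgb6*, an epithelial chain, was not tested, with 4 to 6 counts a liver labelled WT and 5 to 18 in the others.

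*Itga9* encodes α9, which pairs with β1 and binds tenascin C, osteopontin and VCAM1. Its values were 21.9, 19.8 and 27.7 CPM in the livers labelled WT and 34.4, 34.6 and 31.3 CPM in those labelled *Themis*-KO. They did not overlap, and the call was near the threshold (log2 fold change 0.53, SE 0.13, adjusted p = 0.0474, edgeR). *Itga9* lies on chromosome 9 from 118606690 to 118901003 (plus strand). The related *Itga4*, which binds VCAM1 and fibronectin on leukocytes, also lay higher without overlap but was not called (log2 fold change 0.25, adjusted p = 0.198). Of *Itga4*, 8.04% of the exon bases lie opposite exons of *Cerkl*, which held 465 counts against 2005 for *Itga4*.

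**Figure D4:**
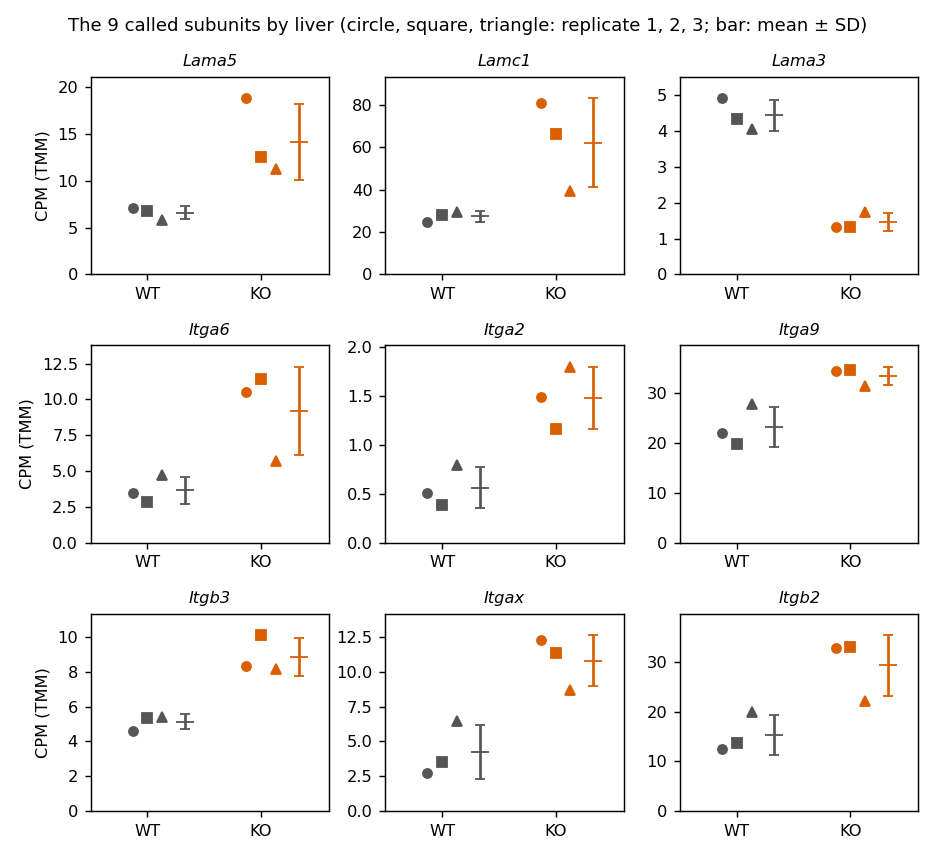
CPM after TMM scaling (y axes, from 0) of the 9 called subunits in each liver labelled WT (gray) or Themis-KO (orange, KO), with mean ± SD (n = 3) beside the points. In all 9 panels the groups do not overlap, and Lama3 alone is lower in the livers labelled Themis-KO.

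Leukocyte integrins are built on β2, which pairs with αL, αM, αX or αD, and on β7, which pairs with α4 or αE. Of 6 with 10 or more counts, 5 were tested, all with a positive log2 fold change, and 2 were called higher. With the mitochondrial type as a covariate, the log2 fold change of all 5 was over 1.5 times smaller, at 0.74 for *Itgax*, 0.55 for *Itgb2*, 0.79 for *Itgam*, 0.13 for *Itgal* and 0.0027 for *Itgb7*, and 0 were called. *Itgax*, which encodes αX (CD11c) of dendritic cells and some macrophages, read 2.75, 3.50 and 6.47 CPM in the livers labelled WT and 12.3, 11.4 and 8.74 CPM in those labelled *Themis*-KO. The groups did not overlap, and replicate 3 of each lay closest to the other (log2 fold change 1.34, SE 0.31, adjusted p = 0.0401, edgeR). *Itgb2*, which encodes β2 (CD18), read 12.5, 13.6 and 20.0 CPM against 32.9, 33 and 22.2 CPM, again without overlap and with replicate 3 of each closest to the other (log2 fold change 0.93, SE 0.22, adjusted p = 0.0416, edgeR). *Itgax* lies on chromosome 7 from 128129547 to 128150657 and *Itgb2* on chromosome 10 from 77530252 to 77565708, both on the plus strand.

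The other partners of β2 overlapped between the groups. *Itgam*, which encodes αM (CD11b) of neutrophils, monocytes and macrophages, read 3.85, 2.83 and 6.04 CPM against 13.3, 13.2 and 4.86 CPM. Its log2 fold change was close to that of *Itgax*, but *Themis*-KO replicate 3 lay inside the WT range and it was not called (1.29, SE 0.41, adjusted p = 0.0847, edgeR). DESeq2 called it higher (adjusted p = 0.00909). *Itgam* shares 68.7% of its exon bases with *Gm49368* on the same strand, which held 14 counts against 1019. *Itgal*, which encodes αL (CD11a) of lymphocytes and other leukocytes, read 14.6, 14.6 and 23.5 CPM against 28.2, 29.2 and 19.8 CPM (log2 fold change 0.55, SE 0.22, adjusted p = 0.145, edgeR). *Itgb7* had 0.39 (adjusted p = 0.288), and *Itgae*, the αE chain of tissue-resident T cells, held 5 to 9 counts a liver and was not tested. *Itgal*, *Itgam*, *Itgax* and *Itgad* lie in this order on chromosome 7, with 11055 bases between *Itgam* and *Itgax*.

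Myeloid and lymphoid markers were measured beside these chains. The 9 macrophage markers summed to between 285 and 460 CPM in the livers labelled WT and between 481 and 613 CPM in those labelled *Themis*-KO, and 3 of 9 were higher (*Cd68*, *Trem2* and *Gpnmb*), while 8 of 9 had a positive log2 fold change. The 5 neutrophil markers listed summed to between 5.37 and 9.39 CPM against 7.13 and 22.1 CPM, with 0 of 3 tested called by edgeR (3 higher at an unadjusted p under 0.05, and 1 higher in DESeq2). Dendritic cell markers summed to between 14.2 and 16.4 CPM against 16.8 and 18.6 CPM, and 0 of 6 were called by edgeR (2 higher at an unadjusted p under 0.05, and 0 in DESeq2). For T cells the sums were between 4.13 and 5.68 CPM against 3.27 and 7.48 CPM, with 1 of 5 tested called, *Cd4*, which was lower. B cell markers summed to between 2.34 and 5.57 CPM against 1.59 and 4.91 CPM, with 0 of 4 called by edgeR, 0 at an unadjusted p under 0.05 and 0 by DESeq2. No marker stood at 0 in all 6 livers, and the part of these cells in the leukocyte integrin results was not tested.

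**Figure D5:**
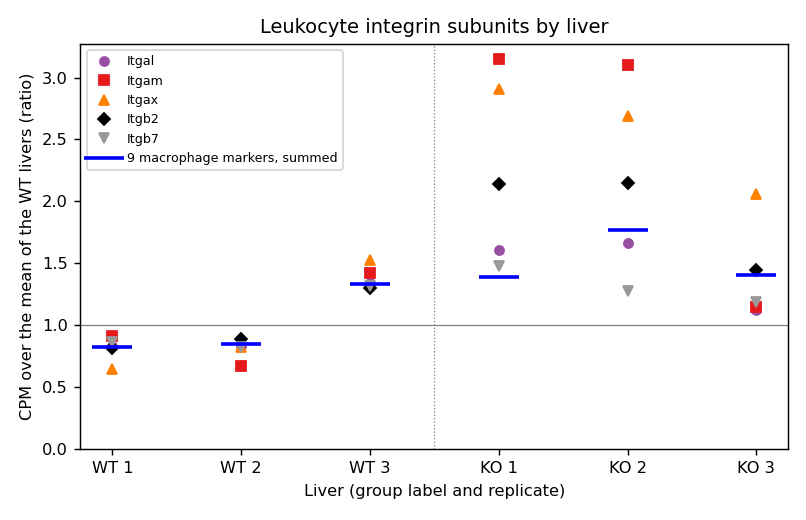
CPM of 5 leukocyte integrin subunits in each liver, as a ratio to the mean of the 3 livers labelled WT (y axis, from 0; x axis, label and replicate), with the sum of 9 macrophage markers on the same scale as blue bars. WT replicate 3 lies above 1 for all 5 subunits, and Themis-KO replicate 3 lies below the other Themis-KO livers for all of them.

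Markers of matrix-producing and parenchymal cells were read beside the laminin and matrix integrin chains. The 9 stellate cell markers summed to between 440 and 501 CPM in the livers labelled WT and between 670 and 715 CPM in those labelled *Themis*-KO, and 5 of 9 were higher (*Col1a1*, *Col1a2*, *Col3a1*, *Dcn* and *Pdgfrb*). The 8 endothelial markers summed to between 249 and 283 CPM against 290 and 318 CPM, and 1 of 8 was higher (*Lyve1*). Cholangiocyte markers, 8 genes of the duct epithelium, summed to between 38.0 and 43.1 CPM against 40.1 and 63.5 CPM, with 0 of 7 tested called by edgeR. At an unadjusted p under 0.05, 2 of these were higher and 1 lower, as in DESeq2. The 10 hepatocyte markers summed to between 65262 and 68276 CPM against 50765 and 56752 CPM, and 2 of 10 were lower (*Cyp2e1* and *Ass1*). At an unadjusted p under 0.05, 4 of these were lower and 0 higher, and DESeq2 called 5 lower and 0 higher. Most of the sum was *Alb*, at between 39776 and 43024 CPM against 33597 and 37327 CPM, which was not called (adjusted p = 0.185, edgeR). The part of any of these cell types in the laminin and integrin results was not tested.

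Per kb of exon, levels of the subunits can be set side by side, but only roughly. The length counts every annotated exon of a gene, whether or not liver RNA held it. In the livers labelled WT, *Itgb1* was highest at 60.4 ± 3.74 CPM per kb (SD, n = 3), followed by *Itgb5* at 22.5 ± 1.16 and *Itgb2* at 5.04 ± 1.33. *Lamc1* came next at 3.31 ± 0.31, above *Itga9* at 3.01 ± 0.53 and *Itga5* at 2.89 ± 0.24. From *Lamc1* down to *Itga6* at 0.41 ± 0.11, each subunit overlapped with the next in the order, and the 3 highest did not overlap with the next. The lowest was *Itga11* at 0.027 ± 0.027. In the livers labelled *Themis*-KO, *Lamc1* read 7.52 ± 2.54, *Itgb2* 9.62 ± 2.02 and *Itgb1* 67.5 ± 5.79 CPM per kb.

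Genes that act with these receptors were described from 4 fixed lists. For reference, edgeR called 721 (4.97%) of all 14496 tested genes higher and 600 (4.14%) lower, with a median log2 fold change of 0.0095. Its p before adjustment was under 0.05 for 2438 genes with a positive log2 fold change and for 2011 with a negative value. DESeq2 called 1279 of the 14496 higher and 1090 lower. The same references apply to the marker counts above. Ligands of integrins other than collagens and laminins had 8 of 20 tested called higher, 0 called lower by edgeR and a median log2 fold change of 0.80. At an unadjusted p under 0.05, 12 were higher and 0 lower, and DESeq2 called 10 higher and 0 lower. *Ccn2*, a matricellular ligand of αV and β3 integrins, read 14.3, 15.2 and 12.1 CPM in the livers labelled WT and 31.1, 30.0 and 36.6 CPM in those labelled *Themis*-KO (log2 fold change 1.23, SE 0.12, adjusted p = 0.00926, edgeR). *Postn*, which encodes periostin, had 0.82 (SE 0.09, adjusted p = 0.00936) and *Vcam1*, the ligand of α4β1 and α9β1, had 1.09 (SE 0.13, adjusted p = 0.00936). Also higher were *Spp1* (osteopontin), *Mfge8*, *Emilin1*, *Icam1* and *Ccn1*. Without a single liver, between 1 and 12 of the ligands were called, with the lowest number without WT replicate 1, and 0 were called with the mitochondrial type as a covariate.

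Laminin partners and non-integrin laminin receptors had 3 of 13 tested higher and 1 lower, with a median of 0.28. Besides *Nid1*, the higher genes were *Hspg2*, which encodes perlecan (log2 fold change 0.42, SE 0.08, adjusted p = 0.0255, edgeR), and *Bcam*, a receptor for laminin α5 (0.73, SE 0.16, adjusted p = 0.0392). *Sdc2*, the syndecan named here because it was the 1 lower gene, had −0.42 (edgeR adjusted p = 0.0407, SE 0.10). *Hspg2* read 31.6, 32.2 and 30.9 CPM in the livers labelled WT and 42.8, 40.6 and 43.2 CPM in those labelled *Themis*-KO, with little spread in either group. None of the 4 was called when the first or second liver of either label was left out.

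Of the adhesome, the cytoplasmic proteins that link integrin tails to actin, 5 of 35 were called higher and 0 lower by edgeR, with a median of 0.21. At an unadjusted p under 0.05, 13 were higher and 1 lower, and DESeq2 called 9 higher and 1 lower. They were *Actn1* (α-actinin 1, log2 fold change 0.49, adjusted p = 0.0304, edgeR), *Flna* (filamin A, 0.86, adjusted p = 0.0305), *Src* (1.23, adjusted p = 0.0314), *Fermt3*, the kindlin of blood cells, and *Nedd9*. Of 9 genes of the latent TGF-β complex, all 9 had a positive log2 fold change, with a median of 0.65. Of these, 1 was higher, *Tgfb2* (1.38, SE 0.30, adjusted p = 0.0374, edgeR). *Tgfb1* (0.62, adjusted p = 0.0767) and *Tgfb3* (0.69, adjusted p = 0.168) were not called by edgeR. The number called in the adhesome ranged from 0 (without the first or second liver of either label) to 15 (without *Themis*-KO replicate 3), and in the TGF-β list from 0 (without any 1 of the other 5 livers) to 6 (without *Themis*-KO replicate 3).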

How the data were processed

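Liver RNA of 3 mice labelled WT and 3 labelled *Themis*-KO was analysed from 1 deposited table. According to the Methods and the submitters' processing notes (cutadapt 2.3, STAR 2.7.8a, RSEM 1.3.3, GRCm38), the authors trimmed and mapped paired-end reads of 151 bp and deposited RSEM's estimated counts per gene, not normalized. The deposited estimated counts are whole numbers, so they entered the test as they stand. The annotation release is not given in the sources used here, and RSEM divides reads that fit several genes, so overlapping genes depend on each other. Column names gave the group and replicate of each library.

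The test was edgeR 4.0.16 in R 4.3.3 (filterByExpr, TMM scaling, glmQLFit and glmQLFTest on all 6 livers, no covariate). The filter removed 10907 of 25403 genes. P-values were adjusted by Benjamini-Hochberg over all 14496 genes in the fit, and a gene was called under 0.05. Each SE follows from the log2 fold change divided by the square root of F. TMM scaling also underlies all CPM, and CPM per kb used merged exons of GENCODE vM21. The labels do not say what separates replicates beyond the liver, so p-values measure the spread between these livers. Replicates of a group differed by far more than counting noise. Exact two-sided permutation tests of shares cannot go below p = 0.1 with 3 livers against 3.

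The members, gene lists and cell type markers were chosen with earlier results of these data known. Counts cover every member, and 1 member is not reported here by name. Full values are given for called members and their known chain partners, and of each list for the called genes with the 3 smallest adjusted p. Alternatives were RLE, upper quartile and total-count scaling, DESeq2 1.42.0 (the study's tool), no filter, a minimum of 10 counts in each liver, a replicate block, the mitochondrial type as a covariate and each liver left out. The same alternatives for the 4 lists and the scalings for overlap counts were added after seeing the data. The fit was tested on simulated data. Figures were drawn with matplotlib 3.10.9. Histology, qPCR and protein measurements were not analysed here.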

Additional observations from a re-analysis of the deposited data

How the results depend on the processing

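With 3 livers a group, the calls depended on single livers. Of the 125 results for single called subunits under the alternatives, 69 kept their call, 56 lost it and none changed sign. RLE and upper quartile scaling kept the same 9 subunits called, and the filter of at least 10 counts in every liver kept 8 and did not test *Itga2*. With total counts alone, 14 were called higher (6 laminin chains) and the median log2 fold change was 0.55; over all genes this scaling moved the median from 0.0095 to 0.147 and the calls from 721 higher and 600 lower to 1449 and 387, so that the subunits' median lay 0.41 above that of all genes in both fits. No filter and DESeq2 each gave 11 higher calls and 2 lower calls, the latter *Lama3* and *Lamb3*. Across all genes, no filter gave 1212 higher and 967 lower calls among 25403 genes tested. DESeq2 gave 1279 higher and 1090 lower among 14496.

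The replicate block left 0 subunits called higher and 0 lower (14 and 2 at an unadjusted p under 0.05), and 0 laminin chains, leukocyte integrins and other integrins. Over all genes it called 17 higher and 45 lower. Deviations of same-numbered livers from their group means correlated at 0.00028, −0.24 and −0.16, against a mean of 0.066 for other pairs. By this measure, 0 livers correlated best with their own number. The study speaks of 3 pairs of livers, and 3 correlations cannot decide whether the numbers pair them. With the mitochondrial type as a covariate, 0 subunits were called either way (6 and 1 at an unadjusted p under 0.05), with 0 in each class, and 0 and 3 over all genes.

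Leaving out 1 liver gave between 0 and 15 subunits called higher and between 0 and 2 called lower (between 12 and 18 and between 2 and 3 at an unadjusted p under 0.05). Among these, between 0 and 4 laminin chains, between 0 and 4 leukocyte integrins and between 0 and 7 other integrins were called higher. Over all genes, leaving out 1 liver called between 8 and 2228 higher and between 12 and 2039 lower. At an unadjusted p under 0.05, these were between 1601 and 3187 and between 1331 and 3104. In the lists, leaving out 1 liver gave between 0 and 15 calls in the adhesome, between 1 and 12 ligands, between 0 and 6 laminin partners and between 0 and 6 genes of the TGF-β complex. The block and the mitochondrial covariate gave 0 calls in the adhesome, the laminin partners and the TGF-β complex, and 2 and 0 ligands. The adhesome had 10 calls with total counts, 8 with no filter and 10 with DESeq2. The TGF-β complex had 4 with total counts, 5 with no filter, 2 with the stricter filter and 5 with DESeq2. The causes were not tested. Subunits of under 50 counts in every liver (*Itga2*, *Itgb4*, *Itgb8* and those not tested) are limited by depth. *Lama3* held 107, 90 and 103 counts in the livers labelled WT and only 31, 31 and 37 in those labelled *Themis*-KO.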

Other observations

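Ratios between chains within a liver are free of library scaling. The ratios below are of counts, not per length. They are some of 9 that were computed, and were chosen after the values were seen. No conclusion is drawn from a test, since the exact permutation test cannot go below p = 0.1 with 3 livers against 3. Among laminin chains, the log2 ratio of *Lama3* to *Lamb3* was −1.30, −1.71 and −1.27 in the livers labelled WT and −2.36, −2.36 and −2.35 in those labelled *Themis*-KO. The SD of 0.0034 in the second group is far below the counting error of each ratio, between 0.26 and 0.28, so nothing can be read from the closeness of these 3 values. The log2 ratio of *Lama5* to *Lama3*, both α chains and so not of the same trimer, was 0.53, 0.66 and 0.51 against 3.83, 3.23 and 2.68.

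Among leukocyte integrins, the log2 ratio of *Itgal* to *Itgb2* was 0.23, 0.10 and 0.23 in the livers labelled WT and −0.22, −0.17 and −0.17 in those labelled *Themis*-KO, with counting errors between 0.076 and 0.12. That of *Itgax* to *Itgb2* was −2.18, −1.96 and −1.63 against −1.42, −1.53 and −1.35. The ratio of *Itgam* to *Itgb2* overlapped between the groups, at −1.70, −2.27 and −1.73 against −1.30, −1.33 and −2.19.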
